A study of Rattus norvegicus with 10 samples.

Results

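The whip-like beat of a sperm tail is driven by axonemal dyneins, and the genes for these motors and their closest partners were followed here in round spermatids, the haploid germ cells that begin to build the flagellum. The genes were chosen by name: protein-coding entries of the deposited tables whose symbol starts with Dnah, Dnai, Dnal, Dnali, Dnaaf, Drc or Rsph followed by a digit. The rule found 27 entries with 26 distinct names among 32545 genes, since Rsph4a is listed at 2 loci. They comprise 9 dynein heavy chains, 2 intermediate chains, 3 light chains, 4 assembly factors, 2 subunits of the nexin-dynein regulatory complex and 7 radial spoke entries. The samples came from wild-type Brown Norway rats of 2 ages: 18 to 20 months (aged, 5 samples) and 4 to 6 months (young, 5 samples). Per the labels, the rats were kept under normal conditions, and the germ cells were separated by STA-PUT, sedimentation of a testis cell suspension by cell size. Nothing in the labels ties a sample to a separate rat, and the p-values therefore speak only of sample-to-sample spread, which may be technical. The question is how these transcripts stood in round spermatids of aged against young rats.

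In an axoneme, outer and inner arms of dynein are attached to the peripheral doublet microtubules. Their heavy chains are the ATP-driven motors, while intermediate and light chains anchor and tune them. Arms are put together in the cytoplasm by assembly factors before they are carried to the axoneme, and radial spokes and the nexin-dynein regulatory complex pass control to the arms. Some outer arm motors and spoke head proteins exist as paralogues, of which sperm flagella and the cilia of airway epithelia use different ones.

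The libraries held 15992576 to 18203223 recovered fragments in the aged group and 14488222 to 17401744 in the young group. The values are FPKM, fragments scaled to gene length and to a total per library. Levels can be compared between genes only as far as their gene models are complete and their fragments were counted alike. The total used for scaling was not the count of recovered fragments. It was 15433190 against 15977667 in young replicate 5 and 16394504 against 15992576 in aged replicate 2. The median log2 difference (aged minus young) over all tested genes was -0.015 on FPKM and 0.0043 with voom on the recovered fragments. Somatic cell markers stood out in some aged libraries: the summed level of 7 Leydig cell markers was 10.8 to 120 FPKM in aged and 5.13 to 8.28 FPKM in young libraries. The highest sums were in aged replicate 2 (120 FPKM) and aged replicate 1 (53.5 FPKM). Sums were 89.9 to 201 FPKM in aged and 59.1 to 87.2 FPKM in young libraries for 7 peritubular markers, 28.6 to 121 FPKM in aged and 22.6 to 29.0 FPKM in young libraries for 8 Sertoli cell markers, and 12.04 to 72.8 FPKM in aged and 9.24 to 17.4 FPKM in young libraries for 7 macrophage markers. The lists were not uniform. In the Sertoli list Clu averaged 29.5 FPKM in aged and 15.8 FPKM in young samples, and Vim 19.1 and 7.14 FPKM. Wt1 averaged 1.95 and 1.87 FPKM, and Rhox5 0.217 and 0.335 FPKM. Of the tested macrophage markers 5 were higher and 1 lower in aged samples, the latter Adgre1 (5.80 and 7.16 FPKM). Of the tested peritubular markers 6 were higher and 1 lower. For the labelled cell type, 6 round spermatid markers, among them Acrv1 and Spaca1, summed to 843 to 1015 FPKM in aged and 726 to 902 FPKM in young libraries. Spermatocyte and late spermatid markers were also present, with sums given below, and purity was not measured. Of 8 markers of ciliated epithelium, such as that of the efferent ducts, 5 were matched by name; Sntn was at 0 in every library, Mcidas reached at most 0.479 FPKM and Cdhr3 0.589 FPKM, while Ccno stood at 38.5 to 44.8 FPKM.

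Promoter sequences, taken from RefSeq (assembly GRCr8, 300 bases from 250 before to 50 after the start), were found for 22 of the 26 names, and 21 of these had a single start. They were searched on both strands for GTTGCC and its reverse complement GGCAAC, a half-site of the X-box that RFX factors bind. These factors are known regulators of ciliary genes, and Rfx2, which spermatids of mice need to form a tail, averaged 282 ± 16.4 FPKM in aged and 285 ± 2.36 FPKM in young samples (SD, n = 5). The half-site was present in 4 of the 21 promoters (19.0%), against 12.2% of all 33469 promoters. The windows that hold it are shown, in lower case with the half-site in capitals. In Dnaaf2 a second half-site of the form GTTNCC lies 2 bases before it and is also in capitals. That arrangement, GTTNCC and GGNAAC 0 to 3 bases apart, occurred in 0.902% of all promoters. The letters are described, and nothing was measured here on binding.
Dnaaf2 (chr6:93406373-93406428, minus strand, half-site starting at -80): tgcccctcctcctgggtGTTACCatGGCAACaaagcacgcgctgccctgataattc
Dnah2 (chr10:54766041-54766096, minus strand, half-site starting at -45): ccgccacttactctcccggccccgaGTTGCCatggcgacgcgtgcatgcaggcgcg
Dnai2 (chr10:100258942-100258997, plus strand, half-site starting at -55): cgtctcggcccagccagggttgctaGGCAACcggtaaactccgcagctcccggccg
Drc1 (chr6:31779245-31779300, minus strand, half-site starting at -19): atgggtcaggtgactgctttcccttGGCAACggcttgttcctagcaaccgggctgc

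The members ranged from strongly expressed genes to a few entries that were almost silent. Of the 27 entries, 23 reached a mean of 1 FPKM over the 10 libraries, the level required for testing; the 4 that did not were Dnah5, Dnah9 and both Rsph4a loci. Among the tested members the mean level ran from 1.74 FPKM (Dnah11) to 967 FPKM (Dnaaf1). Between libraries of 1 age, the tested members had a median within-group SD of 0.09 on the log2(FPKM + 1) scale, with a range of 0.04 to 0.18. The median was 0.12 over the 7823 genes that averaged 5 FPKM or more, a set not matched to the members by level. In the files' coordinates Dnah17, Dnah11, Dnali1 and Rsph9 overlap a protein-coding gene on the opposite strand (Pgs1, Cdca7l, Gnl2 and Mrps18a) and Dnaaf3 overlaps Tnni3 on its own strand, so fragments of these pairs may not be separable.

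**Figure D1:**
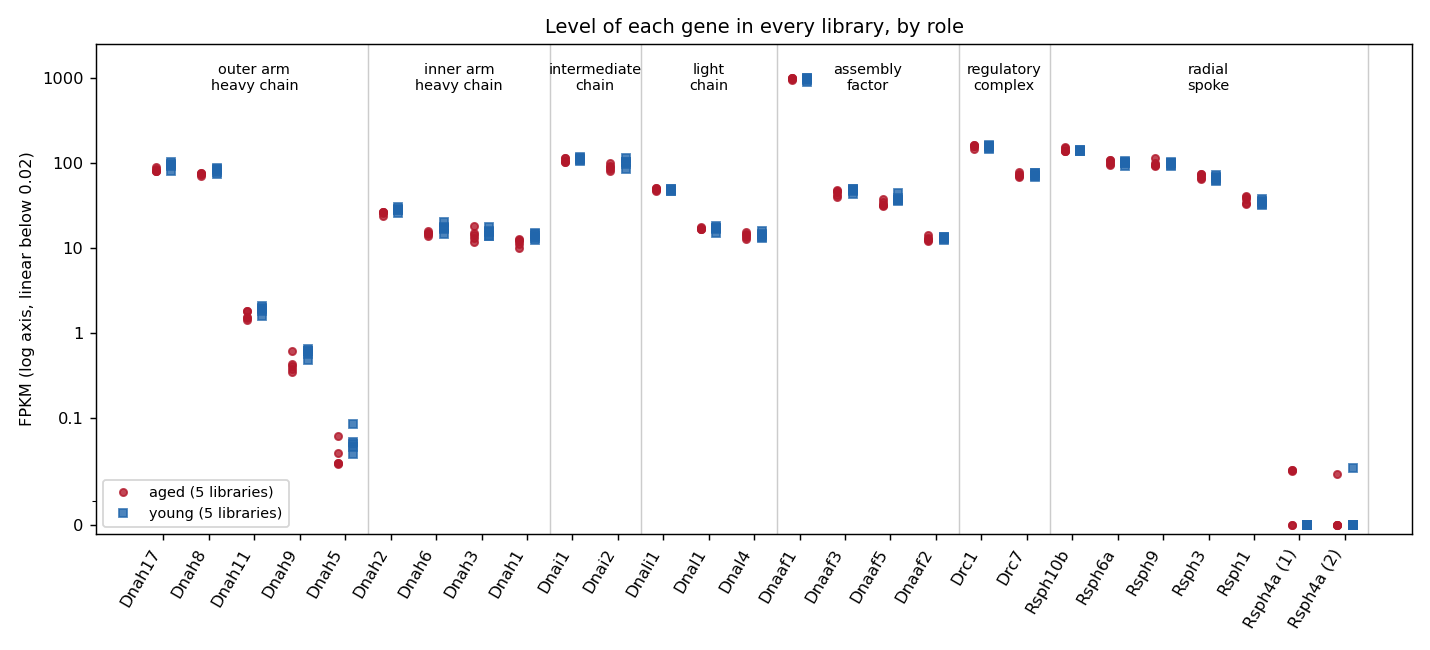
Level in FPKM (log axis, linear below 0.02) of each of the 27 entries in every library, grouped by role, with aged libraries as red circles on the left and young libraries as blue squares on the right of each position. Dnaaf1 lies between 902 and 1000.01 FPKM and Dnah17 and Dnah8 between 70.6 and 103 FPKM, while Dnah5 and the 2 Rsph4a loci reach at most 0.0841 FPKM.

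The age comparison called no member. With limma on log2(FPKM + 1), 0 of the 23 tested members passed a Benjamini-Hochberg adjusted p of 0.05, and the share called over all 12985 tested genes was 0%; voom on the recovered fragments also called 0. Their adjusted p values were 0.344 to 0.990. At an unadjusted p under 0.05, 6 members were lower in aged samples, 5 heavy chains and the assembly factor Dnaaf5, where 6.35% of all tested genes were lower at that p. With voom 3 members had such a p, where 4.55% of all genes were lower at it. In the main comparison none was higher, against 5.54% of all tested genes. For 0 of the 23 did the aged and young values lie apart without overlap, against 2.6% of all tested genes (1.24% with the aged group lower). The median log2 difference (aged minus young) was -0.016 over the 23 members and -0.015 over all tested genes. Of the 23 members 14 (60.9%) were below 0, against 54.5% of all tested genes. By role the differences lay on different sides of that median: all 7 tested heavy chains were below 0, with a median of -0.14, and all 5 tested radial spoke genes above 0, with a median of 0.05, though Rsph9, the closest to 0 of them, turned below 0 after quantile scaling and after removal of a trend on gene length and level. Of the 16 tested members that are not heavy chains, 7 were below 0 and 9 above, with a median of 0.0037. Among these 16, the 2 intermediate chains and 3 of 4 assembly factors were below 0, with medians of -0.10 and -0.05. So were 1 of 3 light chains and 1 of 2 regulatory complex genes.

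**Figure D2:**
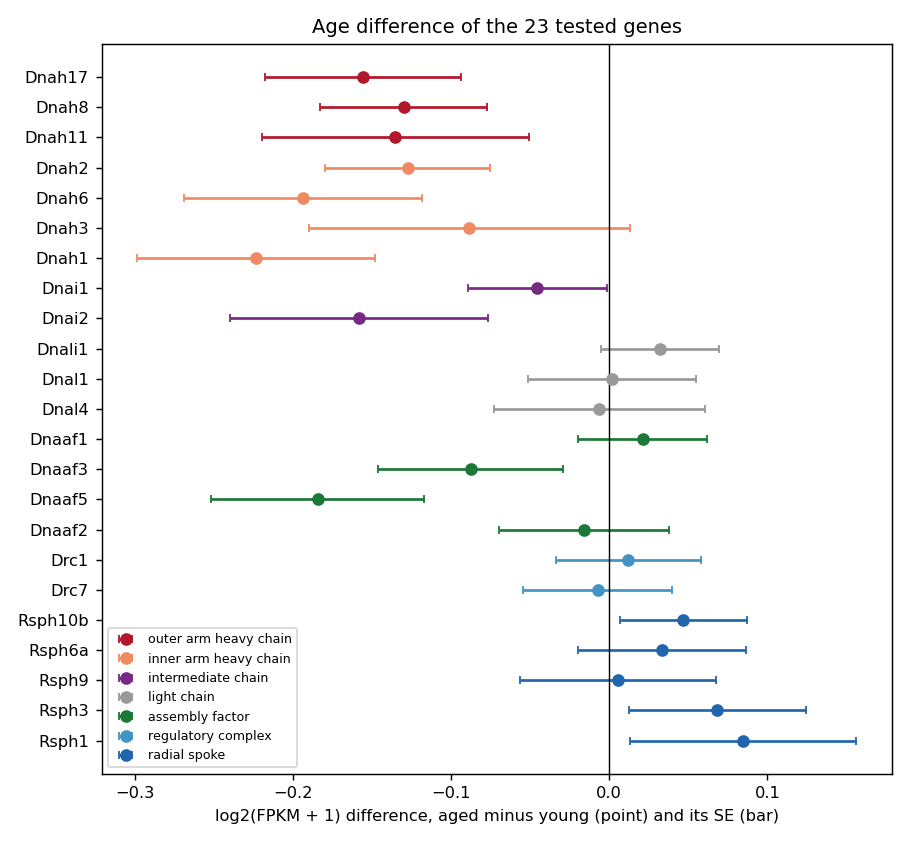
Difference in log2(FPKM + 1), aged minus young (points), with its standard error (bars), for the 23 tested genes, coloured by role. The 7 heavy chains lie between -0.22 and -0.09 and the 5 radial spoke genes between 0.01 and 0.08, of which Rsph9 turned below 0 after quantile scaling.

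The outer arm of the sperm axoneme was represented by its own pair of motors. Dnah17, the beta-type heavy chain of sperm (chromosome 10, 107029466 to 107158997, minus strand, in the files' coordinates), had 81.0, 84.6, 81.2, 88.8 and 81.1 FPKM in the aged libraries, against 103, 93.7, 97.8, 91.0 and 80.4 FPKM in the young libraries. All 5 aged values were below the young mean, but young replicate 5 was the lowest of all 10 libraries, so the groups overlapped. The log2 difference was -0.16 (SE 0.06), with an unadjusted p of 0.0291 and an adjusted p of 0.391 by limma. Dnah8, the gamma-type heavy chain of sperm (chromosome 20, 9313271 to 9560682, plus strand), had 74.5, 73.4, 77.0, 75.9 and 70.6 FPKM in the aged libraries, against 88.1, 83.1, 85.6, 77.1 and 73.7 FPKM in the young libraries. Here too all 5 aged values were below the young mean, and young replicate 5 fell within the aged range. The log2 difference was -0.13 (SE 0.05; unadjusted p = 0.0315, adjusted p = 0.392 by limma). The levels of the 2 motors kept a near-constant ratio: Dnah17 over Dnah8 was 1.12 ± 0.0488 in aged and 1.14 ± 0.0359 in young libraries (SD, n = 5), and the ranges overlapped.

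The outer arm paralogues best known from airway cilia were low or near 0. Dnah11, a beta-type chain, had 1.83, 1.49, 1.79, 1.53 and 1.44 FPKM in the aged libraries, against 2.06, 1.81, 1.98, 1.90 and 1.60 FPKM in the young libraries. Its aged and young values overlapped, and its log2 difference of -0.14 (SE 0.08) had an adjusted p of 0.508 by limma. Dnah9, the other beta-type chain, had 0.614, 0.348, 0.376, 0.433 and 0.414 FPKM in the aged libraries, against 0.573, 0.618, 0.642, 0.478 and 0.607 FPKM in the young libraries. Aged replicate 1 was within the young range and the other 4 aged libraries were below it; the gene was under the level for testing. Dnah5, the gamma-type chain of airway cilia, had 12, 5, 7, 5 and 5 fragments in the aged libraries, against 8, 7, 8, 14 and 8 in the young libraries, which is 0.0286 to 0.0621 FPKM in aged and 0.0382 to 0.0841 FPKM in young samples. The sperm chain was thus far above its airway counterpart in every library. Dnah17 was 132 to 243 times Dnah9 in aged and 132 to 190 times in young libraries. It was 44.2 to 58.2 times Dnah11 in aged and 47.8 to 51.7 times in young libraries. Dnah8 was 1200.3 to 2656 times Dnah5 in aged and 917 to 2175 times in young libraries, ratios whose spread carries the counting error of 5 to 14 Dnah5 fragments. In none of these 3 ratios were the age groups apart.

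Inner arm heavy chains stood below the outer arm pair. Dnah2, part of the 2-headed inner arm, had 26.4, 25.4, 26.4, 26.6 and 23.6 FPKM in the aged libraries, against 29.9, 29.0, 27.9, 28.2 and 25.7 FPKM in the young libraries. Its lowest value was in aged replicate 5, and young replicate 5 lay inside the aged range. The log2 difference was -0.13 (SE 0.05; unadjusted p = 0.0327, adjusted p = 0.392 by limma). Dnah6, a single-headed motor, had 13.7, 15.2, 14.8, 15.8 and 14.8 FPKM in the aged libraries, against 20.2, 17.02, 17.5, 16.5 and 14.7 FPKM in the young libraries. Young replicate 1 was the highest and aged replicate 1 the lowest library, with a log2 difference of -0.19 (SE 0.08; unadjusted p = 0.0259, adjusted p = 0.382 by limma).

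Dnah1, an inner arm motor whose loss in men gives short and malformed sperm tails, had the most negative difference of the members. It had 12.7, 11.2, 12.1, 12.5 and 10.03 FPKM in the aged libraries, against 15.2, 13.9, 14.5, 13.2 and 12.3 FPKM in the young libraries. Young replicate 5 lay below 2 aged libraries and the other young libraries were above every aged one. The log2 difference was -0.22 (SE 0.08; unadjusted p = 0.0126, adjusted p = 0.344 by limma). Dnah3, also an inner arm chain, had 18.0, 14.4, 13.1, 11.8 and 15.1 FPKM in the aged libraries, against 14.0, 15.8, 15.5, 14.0 and 17.5 FPKM in the young libraries. The aged range enclosed the young range, and the log2 difference of -0.09 (SE 0.10) had an adjusted p of 0.718 by limma. Its model in the files spans 1926 bp, where the other 8 heavy chains have 10410 to 14534 bp, so the value covers a short stretch for a heavy chain. The inner arm levels ran Dnah2, Dnah6, Dnah3, Dnah1, with means of 26.9, 16.01, 14.9 and 12.8 FPKM over the 10 libraries; Dnah6 and Dnah3, and Dnah3 and Dnah1, overlapped over libraries, as did Dnah6 and Dnah1.

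The 6 tested heavy chains with long models varied together from library to library. Young replicate 1 was the highest library for 6 of the 6, and aged replicate 5 the lowest for 4 of the 6. The median deviation from each gene's mean was 0.20 on the log2 scale in young replicate 1 and -0.08 in young replicate 5, which was below 3 of the aged libraries and so overlapped the aged range of -0.15 to -0.02. The pattern was not particular to heavy chains. Over 89 other genes of 10 kb or more, the median deviation was also highest in young replicate 1 (0.12) and lowest in aged replicate 5 (-0.11). Young replicate 5 (-0.02) again lay inside the aged range, -0.11 to -0.0016. The count of members with an unadjusted p under 0.05 moved with single libraries, and so did the share of all tested genes lower at that p. Without young replicate 1, 2 members had such a p, Dnah1 and Dnaaf5, where the share over all genes was 4.70%, and without young replicate 5 there were 7, where it was 9.90%. There were 2 without young replicate 3 (5.19% of all genes), and 3 without young replicate 2 (5.34%) or aged replicate 5 (5.18%). Without aged replicates 1 and 2, the libraries with the highest somatic marker levels, only Dnah1 had such a p (0.0248), where 3.80% of all genes were lower at it, while the median over the heavy chains was -0.15, against -0.14 with all libraries. Spermatocyte markers differed in part in the same direction: 6 of 9 were lower in aged samples, 2 of them at an unadjusted p under 0.05, and their sum was 277 to 335 FPKM in aged and 295 to 382 FPKM in young libraries, highest in young replicate 1. All 7 late spermatid markers, among them Prm1 and Tnp1, were also lower in aged samples, none at an unadjusted p under 0.05, with a median log2 difference of -0.09; their sum was 24183 to 31523 FPKM in aged and 24393 to 39157 FPKM in young libraries, highest in young replicate 5. Of the 6 round spermatid markers 5 were higher in aged samples, 1 of them at an unadjusted p under 0.05. The part of these markers in the heavy chain differences was not tested. In samples of many cells, fewer cells of a type and less RNA per cell cannot be told apart.

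**Figure D3:**
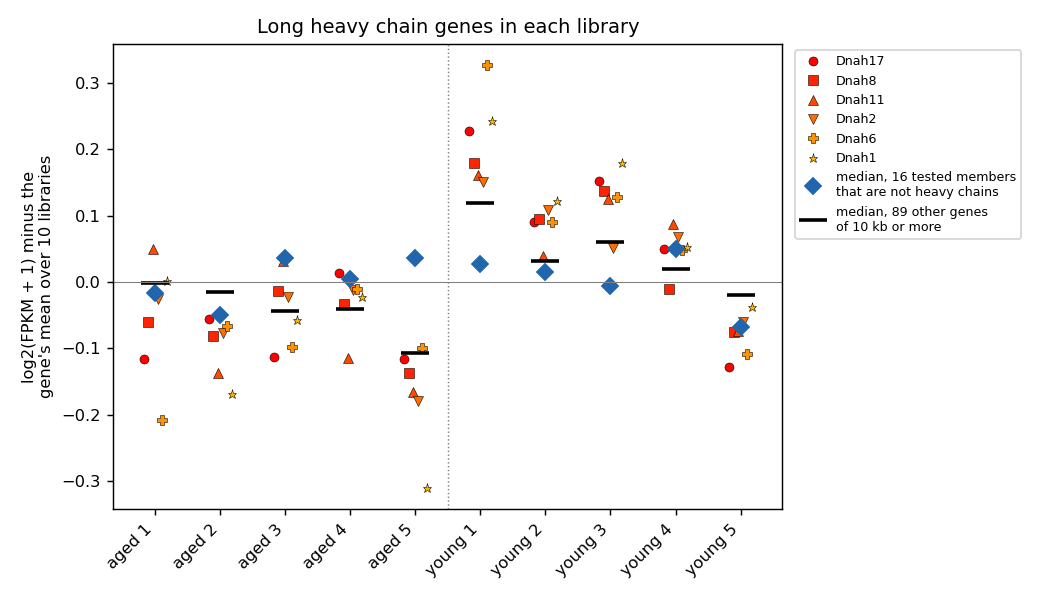
Each gene's log2(FPKM + 1) minus its mean over the 10 libraries, for the 6 tested heavy chain genes of 10 kb or more (warm symbols), with the median of the 16 tested members that are not heavy chains (blue diamonds) and of 89 other genes of 10 kb or more (black bars); aged libraries are on the left. Young replicate 1 is highest for all 6 heavy chains, and young replicate 5 sits among the aged libraries. The median of the 89 other long genes is also highest in young replicate 1 and lowest in aged replicate 5.

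Gene length went with the age difference across the whole table. The median log2 difference was 0.01 for the 3185 tested genes under 1 kb, -0.02 for those of 2 to 4 kb and -0.10 for the 95 of 10 kb or more, 6 of which are the heavy chains. Of the 89 other long genes, 70 were lower in aged samples, with a median of -0.09, and 22.5% were lower at an unadjusted p under 0.05; 5 of the 6 long heavy chains were lower at that p and their median was -0.15. After a trend on length and level was removed within each library, the heavy chain differences were smaller but still below 0: -0.12 for Dnah1 (unadjusted p = 0.0671), -0.10 for Dnah11 (0.287), -0.10 for Dnah6 (0.121), -0.08 for Dnah3 (0.483), -0.07 for Dnah17 (0.214), -0.04 for Dnah8 (0.318) and -0.03 for Dnah2 (0.418), all by limma. Their median was then -0.08, and Dnaaf5, with a model of 3445 bp, was the 1 member left with an unadjusted p under 0.05 (0.0352; adjusted p = 0.385). Heavy chains of 2 other dyneins, of 17600 and 12912 bp and so among the 89 other long genes, showed the same sign. Dync1h1, the cytoplasmic motor, averaged 21.8 ± 2.25 FPKM in aged and 26.7 ± 3.75 FPKM in young samples (SD, n = 5). Dync2h1, the motor of intraflagellar transport, averaged 19.4 ± 0.927 FPKM in aged and 23.2 ± 2.18 FPKM in young samples. Their log2 differences were -0.28 and -0.24, with adjusted p values of 0.360 and 0.319 by limma. The sign was not particular to heavy chains. Of the 6 tested subunits of cytoplasmic and intraflagellar dyneins, these 2 included, 5 were lower and 1 higher in aged samples. Over all tested genes 54.5% were lower. The shorter subunits were Dync1li1 (1812 bp) at -0.12, Dync1i2 at -0.05, Dync1li2 at -0.03 and Dync2li1 at 0.0033.

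**Figure D4:**
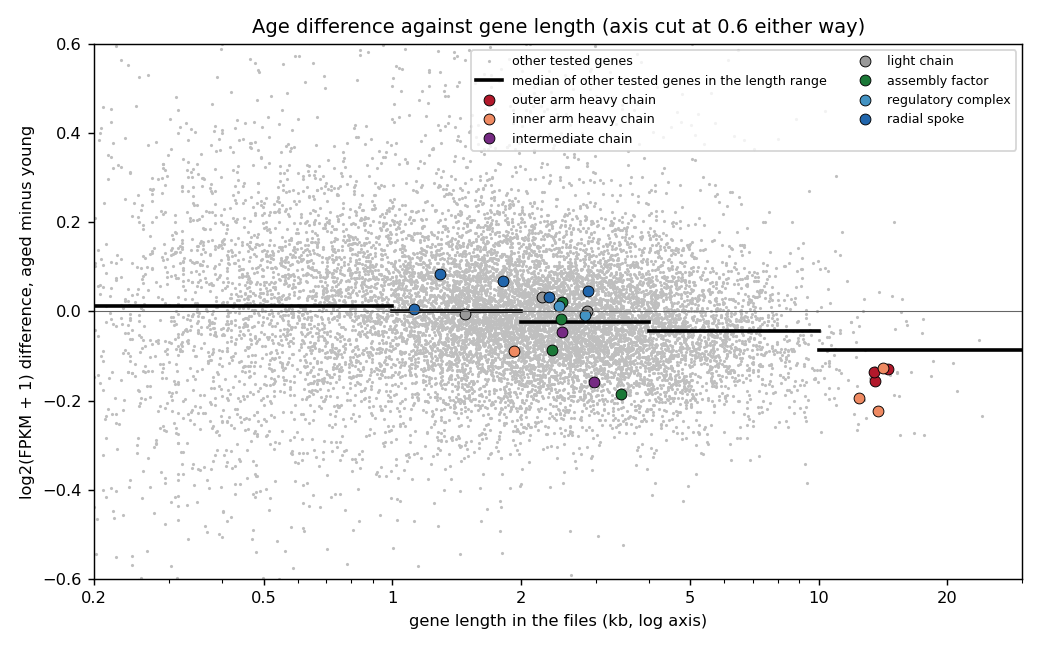
Difference in log2(FPKM + 1), aged minus young, against gene length (kb, log axis) for the 23 tested members (coloured by role) and the other tested genes (grey), with the median of the other genes in 5 length ranges (black lines); points beyond 0.6 either way are not drawn. The median of the other genes is 0.01 under 1 kb and -0.09 at 10 kb or more, and the 6 long heavy chains lie between -0.22 and -0.13.

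The intermediate chains, which hold the outer arm together at its base, were at about the level of the outer arm motors. Dnai1 had 105, 103, 114, 113 and 104 FPKM in the aged libraries, against 117, 112, 107, 113 and 106 FPKM in the young libraries. The ranges overlapped, and the log2 difference was -0.05 (SE 0.04; adjusted p = 0.661 by limma). Dnai2 had 80.6, 85.3, 91.7, 100.3 and 88.5 FPKM in the aged libraries, against 115, 102, 97.9, 101 and 83.7 FPKM in the young libraries. Young replicate 1 was the highest and aged replicate 1 the lowest; the log2 difference was -0.16 (SE 0.08; adjusted p = 0.455 by limma). Dnai1 over Dnai2 was 1.21 ± 0.0685 in aged and 1.12 ± 0.0938 in young libraries (SD, n = 5), with overlapping ranges.

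Light chains differed little between ages, with log2 differences of -0.0062 to 0.03; the lowest, of Dnal4, turned above 0 with median-of-ratios, TPM and quantile scaling and with voom. Dnali1, a light chain of inner arms, had 51.3, 48.1, 49.9, 47.3 and 50.5 FPKM in the aged libraries, against 49.5, 47.2, 49.1, 47.3 and 48.3 FPKM in the young libraries. The aged and young values were interleaved, with a log2 difference of 0.03 (SE 0.04; adjusted p = 0.723 by limma). Dnal1, which binds a motor domain of the outer arm, had 17.5, 16.8, 16.7, 16.6 and 16.97 FPKM in the aged libraries, against 16.9, 17.3, 16.9, 18.3 and 15.1 FPKM in the young libraries. The means were both 16.9 FPKM and the log2 difference was 0.0019 (SE 0.05), a sign that turned in some alternatives. Dnal4, another light chain, averaged 14.2 ± 1.003 FPKM in aged and 14.2 ± 1.14 FPKM in young samples (SD, n = 5).

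Among the assembly factors, Dnaaf1 stood apart by its level. This leucine-rich repeat protein, needed before dynein arms are loaded, had 933, 956, 994, 1000.01 and 984 FPKM in the aged libraries, against 989.9, 958, 953, 996 and 902 FPKM in the young libraries. With a mean of 967 FPKM it ranked 40 among all 32545 genes (chromosome 19, 52217984 to 52245929, plus strand), and no other gene of the files overlaps its position. The ages overlapped throughout, with a log2 difference of 0.02 (SE 0.04; adjusted p = 0.842 by limma), which turned to -0.0012 without young replicate 5.

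The other assembly factors were far lower. Dnaaf3 had 46.9, 39.9, 47.5, 46.0 and 42.3 FPKM in the aged libraries, against 49.0, 46.6, 47.7, 49.8 and 43.4 FPKM in the young libraries. Dnaaf1 was 19.9 to 24.0 times Dnaaf3 in aged and 20.0 to 20.8 times in young libraries, and the Dnaaf3 log2 difference was -0.09 (SE 0.06; adjusted p = 0.532 by limma). Dnaaf5, a HEAT-repeat factor, had 32.3, 31.3, 34.4, 37.3 and 31.7 FPKM in the aged libraries, against 43.8, 35.4, 36.4, 38.5 and 36.6 FPKM in the young libraries. All 5 aged values were below the young mean, and only aged replicate 4 reached into the young range. The log2 difference was -0.18 (SE 0.07; unadjusted p = 0.0192, adjusted p = 0.364 by limma). Dnaaf2, also known as kintoun, averaged 12.9 ± 0.804 FPKM in aged and 13.0 ± 0.482 FPKM in young samples (SD, n = 5).

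Both regulatory complex subunits that carry a Drc name were well expressed. Drc1, a scaffold of the complex, had 158, 144, 164, 156 and 161 FPKM in the aged libraries, against 152, 158, 159.7, 162 and 146 FPKM in the young libraries. Drc7, another of its subunits, had 73.3, 70.3, 77.3, 71.7 and 68.9 FPKM in the aged libraries, against 69.4, 76.2, 69.0, 77.1 and 71.9 FPKM in the young libraries. Aged and young values were interleaved in both. The log2 differences were 0.01 for Drc1 and -0.0073 for Drc7 (SE 0.05 each; adjusted p = 0.921 and 0.953 by limma), the first turning below 0 after quantile scaling and the second above 0 after median-of-ratios or TPM scaling and with voom.

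Radial spoke genes were well expressed, with the sperm paralogue of the spoke head in place of the airway one. Rsph6a, the head subunit that sperm flagella of mice require, had 94.2, 98.2, 102, 108 and 109 FPKM in the aged libraries, against 104, 98.8, 105, 101 and 91.9 FPKM in the young libraries. Its airway paralogue Rsph4a had 3 fragments at 1 locus and 2 at the other over all 10 libraries, with at most 1 in a library, against 3743 to 4235 Rsph6a fragments per aged library and 3299 to 4072 per young library. Both loci lie on chromosome 20 (32450733 to 32467194 and 33945829 to 33962045, plus strand); as they carry the same name, fragments shared by near-identical copies could have been dropped in counting. A count of 0 allows up to 3 fragments, 0.0618 to 0.0819 FPKM depending on the locus and the library, a limit for counting error only. Rsph6a itself overlapped between ages, with a log2 difference of 0.03 (SE 0.05; adjusted p = 0.803 by limma).

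The remaining spoke genes ran from the head to the stalk. Rsph10b, a spoke head protein and the most abundant of the genes named Rsph, had 152, 139, 152, 137 and 139 FPKM in the aged libraries, against 138, 137, 139.6, 141 and 139.9 FPKM in the young libraries. Aged replicates 1 and 3 were above every young library and the other 3 were within the young range, with a log2 difference of 0.05 (SE 0.04; adjusted p = 0.623 by limma). Rsph9, a head subunit, averaged 98.8 ± 9.11 FPKM in aged and 98.2 ± 4.76 FPKM in young samples (SD, n = 5), and Rsph6a over Rsph9 was 1.04 ± 0.0750 in aged and 1.02 ± 0.0862 in young libraries. Rsph3, of the stalk, averaged 69.5 ± 4.64 FPKM in aged and 66.2 ± 3.82 FPKM in young samples, and Rsph1, of the head, 36.9 ± 3.77 FPKM in aged and 34.6 ± 2.14 FPKM in young samples. The 5 spoke genes had adjusted p values of 0.608 to 0.975 by limma.

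Several genes of the same families carry older names in the files and so fall outside the rule. Matched through RefSeq synonyms, 11 were found, of which 9 were tested. Of these 8 were lower and 1 higher in aged samples, with a median log2 difference of -0.06, where 54.5% of all tested genes were lower. By limma 0 passed the adjusted threshold and 4 were lower at an unadjusted p under 0.05, where 6.35% of all tested genes were lower. Wdr63, now Dnai3, an inner arm intermediate chain, averaged 44.8 ± 3.17 FPKM in aged and 50.7 ± 3.32 FPKM in young samples (SD, n = 5; log2 difference -0.17, unadjusted p = 0.0152, adjusted p = 0.356 by limma). Dyx1c1, now Dnaaf4, an assembly factor, averaged 3.55 ± 0.706 FPKM in aged and 5.00 ± 1.12 FPKM in young samples (log2 difference -0.39, adjusted p = 0.356 by limma). Wdr78, now Dnai4, averaged 81.3 ± 3.84 FPKM in aged and 84.7 ± 1.87 FPKM in young samples, and Rtdr1, now Rsph14, 19.5 ± 1.67 FPKM in aged and 18.7 ± 0.611 FPKM in young samples. Of the regulatory complex, Lrrc48, now Drc3, averaged 51.3 ± 2.97 FPKM in aged and 52.9 ± 0.575 FPKM in young samples, while Ccdc153, now Drc12, averaged 0.632 ± 0.179 FPKM in aged and 0.823 ± 0.303 FPKM in young samples and was not tested. Another 5 RefSeq names, among them Dnah7, Dnah10, Dnah12 and Dnah14, matched no symbol in the files and were not analysed here.

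A wider list of 66 axoneme gene names outside the rule, of which 55 were matched, held 55 tested entries. It includes 7 of the 9 tested genes with older names, all but Rtdr1 and RGD1565616. Of the 55, 35 were lower and 20 higher in aged samples, with a median log2 difference of -0.02, where 54.5% of all tested genes were lower. At an unadjusted p under 0.05 by limma 7 were lower and 2 higher, against 6.35% and 5.54% of all tested genes. In this list 0 passed the adjusted threshold. Of those 7, 3 are genes with older names counted above: Wdr63, Dyx1c1 and Pih1d3. Dnajb13, a spoke protein, averaged 94.7 ± 5.16 FPKM in aged and 85.3 ± 5.43 FPKM in young samples (SD, n = 5; log2 difference 0.15, unadjusted p = 0.0188, adjusted p = 0.363 by limma). Iqcd, a subunit of the regulatory complex, averaged 73.0 ± 4.49 FPKM in aged and 67.1 ± 2.96 FPKM in young samples (log2 difference 0.12, unadjusted p = 0.0396, adjusted p = 0.411 by limma). Hydin, a very long protein of the central apparatus, averaged 30.7 ± 1.40 FPKM in aged and 33.9 ± 1.91 FPKM in young samples (log2 difference -0.14, adjusted p = 0.3705 by limma). These 3 were named after their values were seen. Of the 7 tested regulators of ciliary and spermatid genes, among them Rfx1, Rfx2, Rfx3, Sox30 and Crem, 0 had an unadjusted p under 0.05, 5 were higher and 2 lower in aged samples, and by limma 0 passed; by voom 0 of all genes passed.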

How the data were processed

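Round spermatid RNA of 5 aged and 5 young rat samples was sequenced, and the authors deposited 1 table of FPKM values per sample with gene names, positions and lengths, per the file headers. Alignment with HISAT2 2.0.5 and counting with featureCounts 1.5.0-p3 are listed in the submitters' processing notes. Their genome build, settings and strand use (not given in the sources used here) could change the values. Fragments of genes that overlap on either strand may therefore not be separable. Value times gene length was a whole multiple of 1 step in every sample (100% of values within 0.01 of a whole number), which gave fragments: 1 FPKM over 1 kb stands for 14.6 to 18.6.

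The test was limma 3.58.1 in R 4.3.3 (eBayes with a trend) on log2(FPKM + 1), with a pseudocount of 1, over the 12985 genes averaging 1 FPKM or more, two-sided, Benjamini-Hochberg adjusted over all of them, threshold 0.05. This scale understates changes of low genes. Members, roles and lists were chosen with earlier results of these data known. Genes named with every value were the 2 most abundant of each role, the paralogue pairs and members with an unadjusted p under 0.05; Dnah3 was added after its values were seen. No 2 libraries of a group agreed within sampling noise. The alternatives were a pseudocount of 0.1, minimum means of 0.1 and 5 FPKM and no filter, median-of-ratios, TPM and quantile scaling, voom, a replicate block, removal of a spline trend on gene length and level within each library, and left-out samples.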

Additional observations from a re-analysis of the deposited data

How the results depend on the processing

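The count of members past the adjusted threshold was 0 under all 21 alternatives, and the heavy chain median stayed between -0.17 and -0.08. The 6 members with an unadjusted p under 0.05, where 6.35% of all tested genes were lower at that p, became 2 with TPM scaling (4.17% of all genes), 3 with quantile scaling (5.86%), 3 with voom (4.55%), 1 after removal of the length and level trend (5.85%) and 1 without aged replicates 1 and 2 together (3.80%); the cause was not tested. They were 2 to 7 when each replicate was left out in turn, with 2 without young replicate 1 or 3, 3 without young replicate 2 or aged replicate 5, and 7 without young replicate 5 (9.90% of all genes) or aged replicate 4 (7.03%). Small differences changed sign, given with their range over the single leave-outs: Dnaaf1 to -0.0012 without young replicate 5 (up to 0.036); Dnal1 to -0.010 without both aged replicates 1 and 2, -0.036 without young replicate 5 and -0.0093 without aged replicate 1 (up to 0.030); Drc1 to -0.0043 with quantile scaling, -0.011 without young replicate 5 and -0.0054 without aged replicate 3 (up to 0.041); Drc7 to 0.0059 with median-of-ratios scaling, 0.0062 with TPM scaling, 0.014 with voom, 0.0056 without the length trend, and 0.0097, 0.014, 0.0023 and 0.0094 without young replicate 2 or 4 or aged replicate 2 or 5 (down to -0.031). Dnaaf2 (-0.016), Dnal4 (-0.0062) and Rsph9 (0.0055) also changed sign in some alternatives, with ranges of -0.046 to 0.022 for Dnaaf2, -0.036 to 0.033 for Dnal4 and -0.047 to 0.058 for Rsph9. The other 16 of the 23 tested members kept their sign in every alternative that tested them. Same-numbered aged and young samples did not deviate together (correlations of -0.16 to 0.05). Differently numbered ones had correlations of -0.18 to 0.20, so the check shows no pairing but cannot exclude one. A replicate block gave 5 members with an unadjusted p under 0.05 by limma, where 4.90% of all genes were lower at it, and 0 past the adjusted threshold. Depth limits the 2 Rsph4a loci most, with 0 or 1 fragment per library, and after them Dnah5, with 5 to 14. These entries were tested only without a filter on low values. For Dnah5 the log2 difference was then -0.023 (unadjusted p = 0.357 by limma), on a scale that understates changes of such low genes.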
